A study of Mus musculus with 60 samples.

Results

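The clustered protocadherins are cell surface cadherins encoded side by side on mouse chromosome 18. They were taken here as every protein-coding gene of that chromosome in the RefSeq table for GRCm38.p6 whose symbol is Pcdha, Pcdhb, Pcdhga, Pcdhgb or Pcdhgc followed by a number. This rule gave 55 of 21887 protein-coding genes: 12 alpha, 22 beta, 12 gamma A, 6 gamma B and 3 gamma C-type genes. Together they span 911.6 kb, chr18:36930285-37841873, with a median of 7202 bp between neighbouring starts. Pcdhac1 and Pcdhac2, the C-type genes of the alpha group, carry a letter before their number and were not members, and their values are given beside those of the gamma C-type genes.

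Each clustered protocadherin protein binds the same isoform on a facing membrane, and the set of isoforms that a neuron displays acts as an identity by which its own branches recognise and avoid each other. Alpha and gamma genes each join their own variable first exon to constant exons that all genes of the group share, while a beta gene consists of a single large coding exon. In most neurons a few alpha, beta and gamma genes are chosen at random, by a mechanism that involves promoter methylation, CTCF and cohesin, whereas C-type genes are expressed more uniformly. Gamma protocadherins also serve the survival of spinal interneurons, and alpha protocadherins the wiring of olfactory sensory and serotonergic axons.

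Chromatin came from L4 to L6 dorsal root ganglia, the sensory ganglia that supply the sciatic nerve, of C57BL/6 mice aged 6-8 weeks, 24 hours after 1 of 4 surgeries. The sciatic nerve was cut (SNA) or had a sham operation (Sham), and the dorsal columns, which carry the central sensory axons up the spinal cord, were cut (DCA) or left after a laminectomy (Lam). H3K9ac and H3K27ac, marks of active promoters and enhancers, and H3K27me3, the mark laid down by Polycomb repressive complexes, were measured by ChIP-seq, with 2 samples per mark and surgery that each pooled 10 mice. Accessible chromatin was measured by ATAC-seq in 3 samples of 1 mouse for each surgery.

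The replicates of a condition were pooled before peaks were called, so each assay and surgery has 1 peak list, 16 in all. No value below has a replicate error, and no difference between surgeries has a replicate check or a p-value. The lists held 50332 to 89647 peaks for H3K9ac, 43803 to 75824 for H3K27ac, 90011 to 154055 for H3K27me3 and 153556 to 174605 for ATAC. Read numbers are not part of these lists, and the sequencing depth behind them is unknown. The ganglion was profiled whole, so a peak carried by fewer cells of a type and a weaker peak in each of those cells cannot be told apart. Of the 8 sensory neuron marker genes all had an ATAC peak within 1 kb of a gene end in every list, but 1 to 3 had an H3K9ac peak and 1 or 2 an H3K27ac peak there. Of the 6 markers of satellite glia and Schwann cells 5 had H3K9ac in every list and 4 to 6 had H3K27ac. Of the 4 macrophage markers 2 or 3 had ATAC and 0 to 3 had H3K9ac. All 4 skeletal muscle markers had ATAC peaks as well, and 0 of them had H3K27ac, so accessibility at a gene end did not separate these tissues. H3K27me3 lay at an end of 5 (Sham), 5 (SNA), 6 (Lam) and 3 (DCA) of the 8 sensory neuron markers. Ordered alike, it lay at 1, 0, 2 and 0 of the 6 glial, 0, 0, 1 and 0 of the 4 macrophage and 3, 2, 4 and 0 of the 4 muscle markers. Of all genes 28.6%, 23.0%, 33.4% and 12.3% had it there.

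Along the cluster and 10 kb on either side, H3K9ac gave 12 peaks after Sham, 17 after SNA, 15 after Lam and 20 after DCA. H3K27ac gave 7, 16, 12 and 10 in the same order, which holds for every series of 4 values below. Of the H3K9ac peaks, 2 in each list lay in the gap between beta and gamma, where Taf7 lies. Another 3, 4, 3 and 7 lay past the gamma end, on the side of Diaph1. For H3K27ac the gap held 1, 3, 1 and 1 peaks and the stretch past the end 2, 4, 3 and 4. The counts along the cluster are thus not those of the protocadherin genes alone. Both marks were sparser than over the genome, with 12.9 to 21.5 H3K9ac peaks per Mb against 18.5 to 32.9, and 7.51 to 17.2 H3K27ac peaks per Mb against 16.1 to 27.9. ATAC peaks numbered 58, 70, 49 and 64, or 52.6 to 75.1 per Mb, where the genome had 56.4 to 64.1. H3K27me3 was the assay in which the cluster lay above the genome in every list, with 90.2 to 127 peaks per Mb against 33.1 to 56.6. Its 84, 113, 118 and 108 peaks covered 33.2%, 33.1%, 30.1% and 22.3% of the cluster, against 6.54%, 6.34%, 7.13% and 3.36% of the genome.

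**Figure D1:**
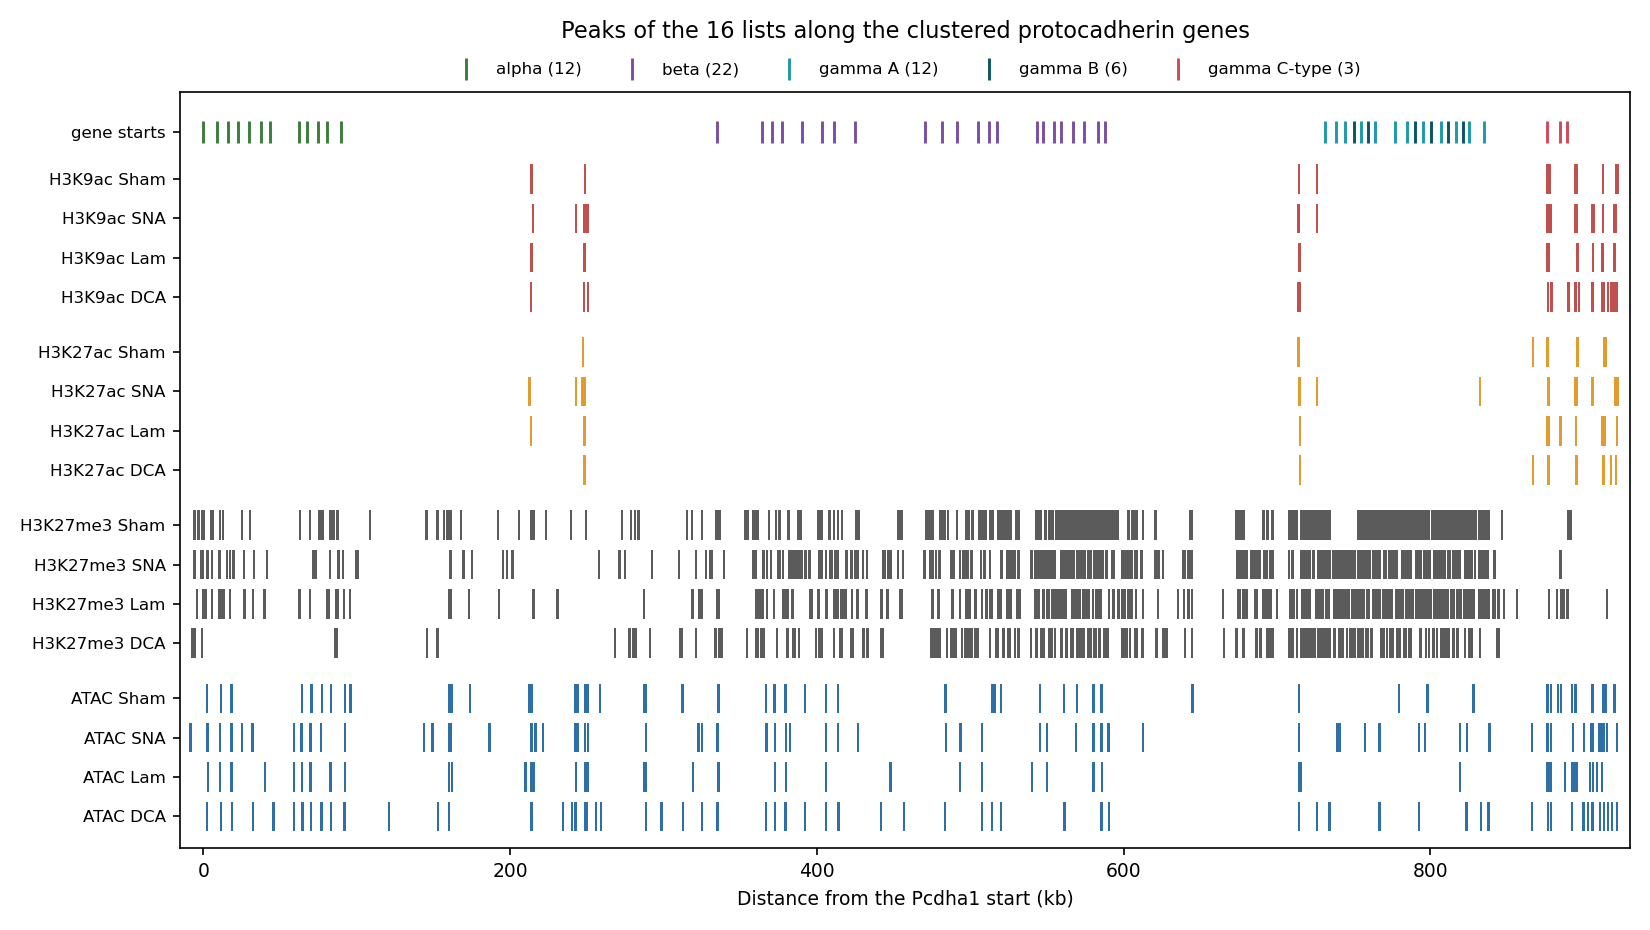
Positions of the peaks of all 16 lists along the cluster, as distance in kb from the Pcdha1 start, with the starts of the 55 genes on the top row coloured by group and 1 row per assay and surgery. H3K9ac and H3K27ac peaks gather some kb before the shared alpha end, in the gap between beta and gamma, and from Pcdhgc3 to just past the shared gamma end. H3K9ac peaks also lie at Pcdhac2 in each list, and an H3K27ac peak there after Lam alone. ATAC peaks also run through the alpha and beta genes, and H3K27me3 peaks are densest over the beta and gamma genes.

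Acetyl peaks were nearly absent from the alpha, beta and gamma variable genes. In every list 0 H3K9ac peaks lay in the alpha variable segment, the gap between alpha and beta, the beta segment or the gamma variable segment, where each segment of genes begins 2 kb before its first start. H3K27ac likewise gave 0 peaks in the alpha variable segment, the gap after it and the beta segment. In the gamma variable segment it gave 1 peak after Sham, 1 after SNA, 0 after Lam and 1 after DCA. The Sham and DCA peaks, chr18:37796408-37796787 and chr18:37796373-37796722, overlapped each other 9810 and 9852 bp before the Pcdhgc3 start. With a −log10 p of 11 and 9.59 they were the strongest H3K27ac peaks of the cluster in those lists. No H3K9ac or ATAC peak overlapped them, and an ATAC peak region just before them, chr18:37795765-37796219, was present after SNA (6.07) and DCA (3.45).

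The start of a member was taken as its lower coordinate, the end that the alpha and gamma genes do not share with each other. Within 1 kb of it, 1 of 55 members had an H3K9ac peak after Sham, 1 after SNA, 1 after Lam and 2 after DCA. That is 1.82% (95% Wilson interval 0.322% to 9.61%, which covers counting error only) or 3.64% after DCA. Over 17492 genes of the other chromosomes whose start is given by RefSeq, the share was 46.9% after Sham, 48.3% after SNA, 48.1% after Lam and 56.9% after DCA. H3K27ac peaks marked 1, 1, 2 and 1 member starts, against 37.8%, 49.2%, 48.6% and 40.8% of those genes. ATAC peaks marked 3, 4, 2 and 3 member starts, or 5.45%, 7.27%, 3.64% and 5.45%, against 64.7%, 66.8%, 65.0% and 66.4%. Altogether 48 of 55 members had no start peak in any of the 12 H3K9ac, H3K27ac and ATAC lists, where 24.3% of the other genes had none.

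**Figure D2:**
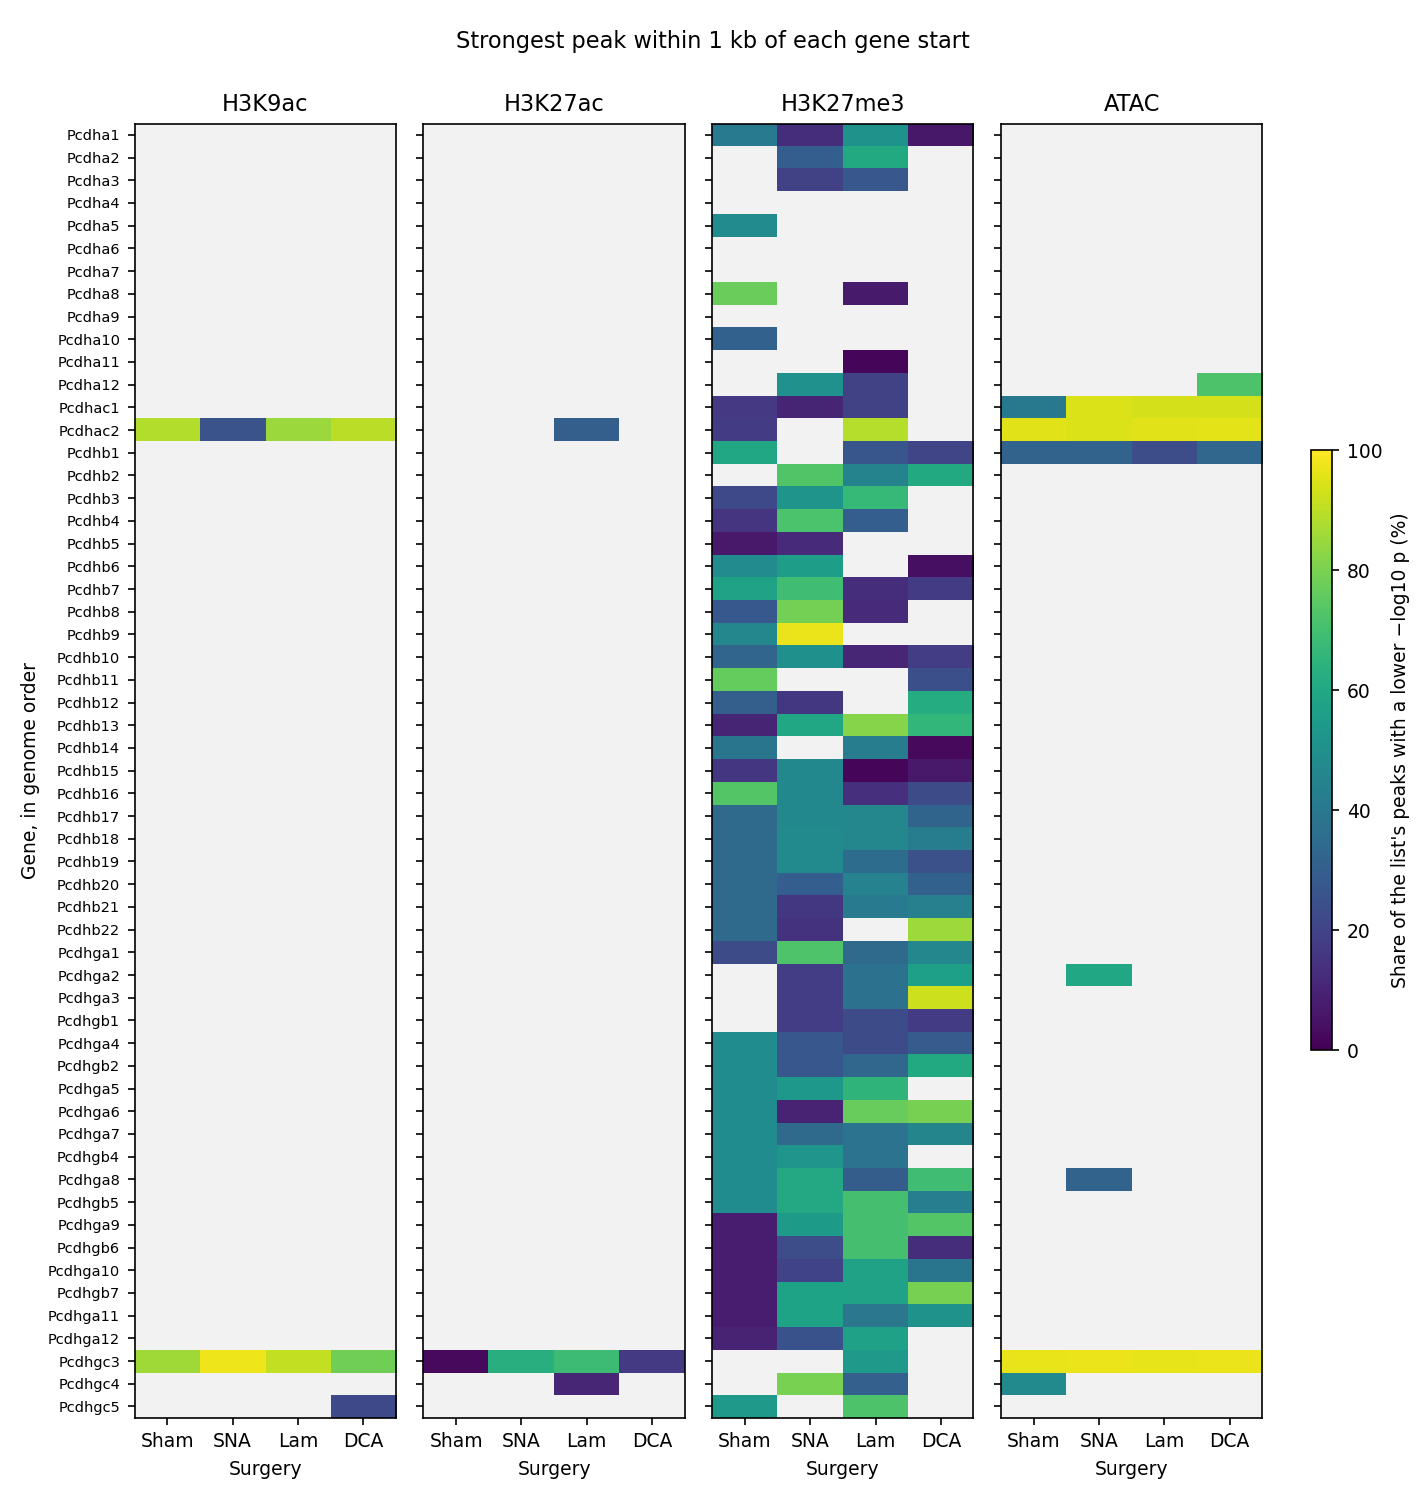
For each gene in genome order (rows, with Pcdhac1 and Pcdhac2 in their places) and each surgery (columns), the colour gives the share in percent of that list's peaks that are weaker, by −log10 p, than the strongest peak within 1 kb of the gene start, and grey marks no peak. Pcdhgc3 is filled in all 12 columns of H3K9ac, H3K27ac and ATAC, nearly all other members are grey there, and the H3K27me3 panel is filled through most beta and gamma rows.

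Pcdhgc3, a gamma C-type gene, was the one member with a start peak in all 12 of those lists, as 25.8% of the other genes had. Its ATAC peak had a −log10 p of 25 after Sham, 33.2 after SNA, 21.6 after Lam and 28.8 after DCA, and it was stronger than 96.6%, 97.0%, 96.3% and 96.9% of the peaks of its list. The 4 ATAC summits fell 64, 75, 72 and 75 bp before the annotated start, for example in the Sham peak chr18:37805951-37806913. Its H3K9ac peak had a −log10 p of 6.66, 12.9, 9.76 and 10.9, and after SNA and Lam it was the strongest H3K9ac peak of the whole cluster. Its H3K27ac peak had a −log10 p of 4.11, 7.29, 10.1 and 5.2. Within their own lists the H3K27ac peaks ranked lower than the ATAC peaks, above 2.48%, 62.7%, 68.6% and 17.0% of the list. Each strength belongs to its own list, and the values were not compared between surgeries. H3K27me3 was called at the Pcdhgc3 start after Lam alone.

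Pcdhac2, which serves the even spacing of serotonergic axons, also had ATAC and H3K9ac start peaks in all 4 lists, with an ATAC −log10 p of 18.1, 18, 17.9 and 22.3 and an H3K9ac −log10 p of 6.68, 3.53, 8.26 and 15.9. Its H3K27ac peak appeared after Lam alone, at 6.48. Pcdhac1 had ATAC start peaks in all 4 lists, at 4.12, 18.4, 11.9 and 13.4, and no acetyl peak in any. H3K27me3 was called at the Pcdhac1 start after Sham, SNA and Lam, and at the Pcdhac2 start after Sham and Lam. Pcdhgc4, which is required for the survival of certain neurons, had an ATAC peak after Sham (4.44) and an H3K27ac peak after Lam (4.87). Pcdhgc5, a late-expressed C-type gene, had an H3K9ac peak after DCA (5.27) and no H3K27ac or ATAC peak. These 3 peaks of Pcdhgc4 and Pcdhgc5 were stronger than 48%, 10.6% and 22.0% of their lists.

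**Figure D3:**
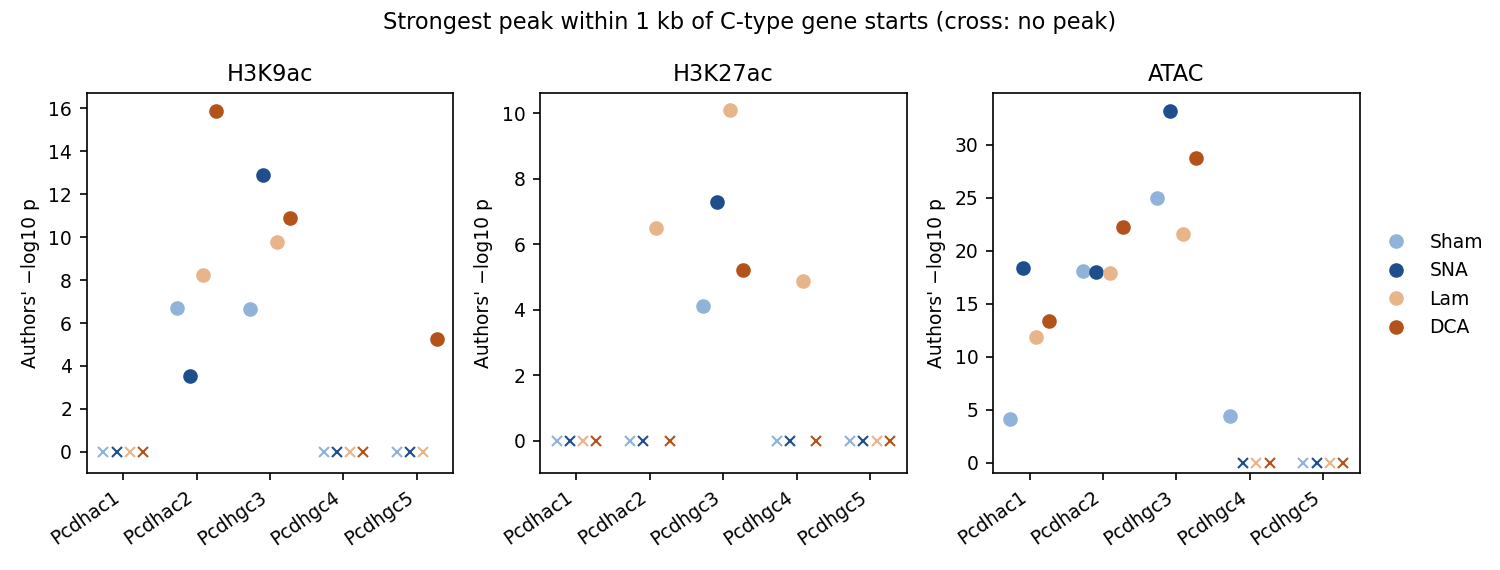
The authors' −log10 p of the strongest H3K9ac, H3K27ac and ATAC peak within 1 kb of the start of each C-type gene, 1 point per surgery, with a cross at 0 where the list has no peak. Pcdhgc3 has points for all 4 surgeries in each panel, Pcdhac2 in H3K9ac and ATAC, Pcdhac1 in ATAC, and Pcdhgc4 and Pcdhgc5 are mostly crosses.

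Outside the C-type genes the start peaks were few and came from ATAC. Pcdhb1, the first beta gene, had one in all 4 lists, with a −log10 p of 3.79 after Sham, 4.26 after SNA, 3.33 after Lam and 4.06 after DCA. These peaks were weak, above 31.8%, 32.0%, 23.7% and 32.9% of their lists. Pcdha12 had a peak within 1 kb after DCA (6.17), but its summit lay 1255 bp after the start. Pcdhga2 and Pcdhga8 had a start peak after SNA (5.68 and 4.26). The 48 members with none in any list were 11 of 12 alpha genes, 21 of 22 beta genes, 10 of 12 gamma A genes and all 6 gamma B genes.

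In the variable segments most ATAC summits lay about 2 kb after a gene start. Over the 4 lists, 79.3% of the ATAC summits of the alpha variable, beta and gamma variable segments fell 1 to 3 kb after the nearest member start, a window that holds 16.9% of the bases. The stretch within 1 kb of a start, with 18.5% of the bases, held 5.19% of the summits. By list the window held 26 of 31 summits after Sham, 34 of 44 after SNA, 17 of 22 after Lam and 30 of 38 after DCA. This window was chosen after the summit positions had been seen, and so the shares describe the pattern and are no test of it.

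**Figure D4:**
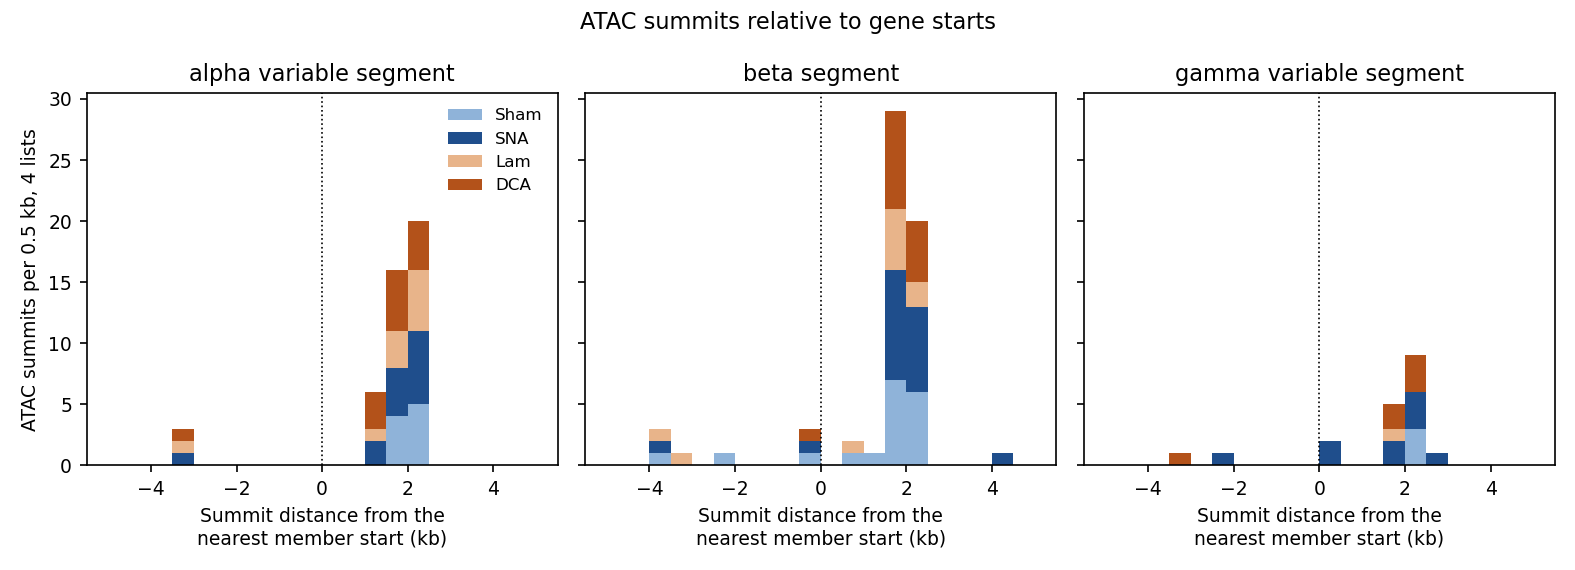
Number of ATAC summits per 0.5 kb bin against their distance in kb from the nearest member start, positive towards the distal end, stacked by surgery for the alpha variable, beta and gamma variable segments. In each panel the summits pile up between 1 and 3 kb after the start, and few lie at the dotted line that marks the start itself.

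Counted by gene, 26 of 55 members had such a summit after Sham (47.3%, interval 34.7% to 60.2%), 31 after SNA (56.4%, 43.3% to 68.6%), 19 after Lam (34.5%, 23.4% to 47.7%) and 29 after DCA (52.7%, 39.8% to 65.3%). Of the 17492 other genes 17.2%, 18.2%, 18.3% and 17.9% had one. The median distance of the members' summits from the start was 2017, 2007, 1975 and 1953 bp. Among the variable genes the alpha genes had it most often, 8, 9, 8 and 10 of 12, followed by beta genes with 13, 14, 7 and 13 of 22. For gamma A genes the counts were 3, 5, 1 and 3 of 12, for gamma B genes 0, 2, 0 and 2 of 6 and for gamma C-type genes 2, 1, 3 and 1 of 3.

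The beta genes, whose distal ends are their own, show where in the gene the summit sits. They are between 2340 bp (Pcdhb8) and 5271 bp (Pcdhb16) long, with a median of 3417 bp. Their summits in this window lay a median of 1598 bp before the distal end after Sham, 1326 after SNA, 1744 after Lam and 1365 after DCA. Expressed along the gene, the median position was 55.4%, 59.1%, 53.0% and 60.0% of the length. The choice of the window and the lengths of the genes largely fix these positions, which are given as a description.

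This summit was present in all 4 lists at 11 members and in none at another 11. Present in all 4, at 20.0% of the members beside 6.72% of the other genes, it was at Pcdha1, Pcdha2, Pcdha3, Pcdha8, Pcdha9, Pcdha12, Pcdhb3, Pcdhb4, Pcdhb6, Pcdhb21 and Pcdhgc3, named after their values were seen. At Pcdha1, the first gene of the cluster, the −log10 p was 6.36 after Sham, 9.47 after SNA, 3.64 after Lam and 5.07 after DCA. At Pcdha12, the last alpha gene before the C-type genes, it was 4.47, 7.69, 5.34 and 8.19. At Pcdhb3 it was 4.12, 4.6, 3.64 and 5.42. Over all 26, 31, 19 and 29 members with such a summit the median −log10 p was 4.47, 4.95, 4.28 and 4.72, which equals the median of all ATAC peaks of each list to the digits given. The 11 members with none held 4 beta, 3 gamma A and 4 gamma B genes, and 65.8% of the other genes had none.

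Non-clustered protocadherins, which are single genes elsewhere in the genome, did not share the empty starts. Of the 9 whose start is given, 8 had an ATAC start peak after Sham, 8 after SNA, 8 after Lam and 7 after DCA. Of the same 9 genes, 8, 7, 6 and 7 had a summit 1 to 3 kb after the start. The clustered genes thus differed from them in these lists at the start, with 2 to 4 of 55 marked, and the difference was not tested.

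H3K27me3 gave the opposite picture at the starts. A peak lay within 1 kb of 41 of 55 member starts after Sham (74.5%, interval 61.7% to 84.2%), 42 after SNA (76.4%, 63.7% to 85.6%), 43 after Lam (78.2%, 65.6% to 87.1%) and 33 after DCA (60.0%, 46.8% to 71.9%). Of the other genes 18.7%, 14.1%, 21.1% and 6.65% had one. Neighbouring starts can lie in 1 wide peak. The strongest peaks at these 41, 42, 43 and 33 starts were 25, 34, 36 and 33 different peaks, so members are not independent and the intervals are too narrow. The mark differed between the groups. It was at 10 of 12 gamma A starts after Sham, 12 after SNA, 12 after Lam and 10 after DCA, and at 5, 6, 6 and 5 of 6 gamma B starts. Beta genes had it at 21, 19, 16 and 17 of 22 starts. Alpha genes had it at 4, 4, 6 and 1 of 12, and the gamma C-type genes at 1, 1, 3 and 0 of 3.

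At 23 members all 4 lists held an H3K27me3 start peak, 41.8% of the members, where 2.39% of the other genes did. They were Pcdha1 among the alpha genes, Pcdhb7, Pcdhb10, Pcdhb13 and Pcdhb15 to Pcdhb21 among the beta genes, Pcdhga1, Pcdhga4 and Pcdhga6 to Pcdhga11 among the gamma A genes, and Pcdhgb2, Pcdhgb5, Pcdhgb6 and Pcdhgb7 among the gamma B genes. Of these 23, all except Pcdhga8 had no start peak in any of the 12 lists of the other assays. The 4 members without an H3K27me3 start peak in any list were Pcdha4, Pcdha6, Pcdha7 and Pcdha9, named after their values were seen, where 67.3% of the other genes had none.

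Of the 7 segments from the alpha variable genes to the shared gamma end, the gamma variable genes were the most covered in each list. H3K27me3 peaks held 63.5% of that segment after Sham, 66.0% after SNA, 67.9% after Lam and 38.9% after DCA. For the beta segment it was 46.5%, 45.7%, 36.2% and 33.8%, and for the gap between beta and gamma 37.2%, 44.2%, 34.8% and 34.5%. The 8.0 kb before the alpha genes had 28.4%, 23.5%, 4.28% and 41.8%, from 1 or 2 peaks a list. In the alpha variable segment the coverage was 14.3%, 10.8%, 12.5% and 3.25%. The 37.5 kb from Pcdhgc3 to the shared gamma end, next to the most covered segment, had 7.88%, 5.87%, 20.0% and 0.0%. After Sham a single peak of 47.3 kb, chr18:37682743-37730021, ran across the gamma A and gamma B genes, and 17 peaks of that list were wider. The widest peaks of the cluster were 15.7 kb after SNA, 11 kb after Lam and 10.3 kb after DCA. Peaks of at least 5 kb made up 10.7%, 18.6%, 13.6% and 6.48% of the cluster's peaks, against 2.96%, 1.74%, 2.23% and 0.863% of all H3K27me3 peaks.

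**Figure D5:**
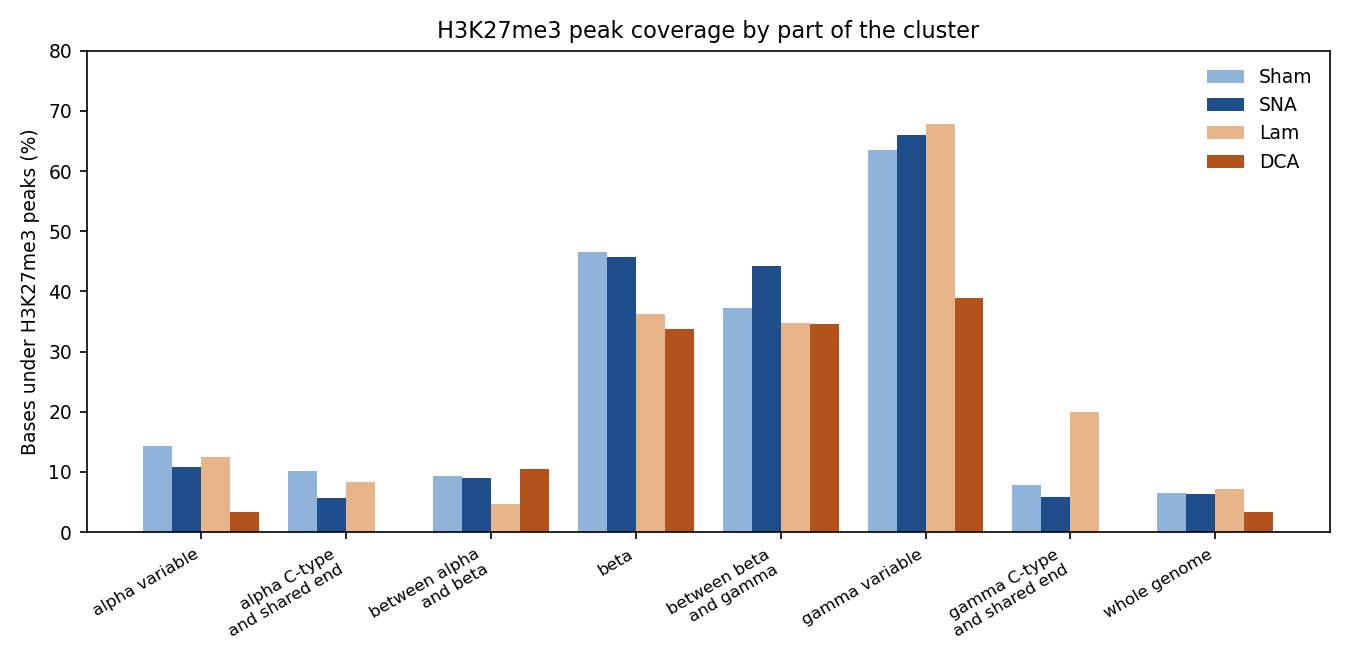
Share of bases in percent under H3K27me3 peaks in each of the 7 segments from the alpha variable genes to the shared gamma end and in the whole genome, 1 bar per surgery, with no error bars because each list pools its replicates. Of these segments the gamma variable one stands highest, at 63.5% to 67.9% after Sham, SNA and Lam and 38.9% after DCA, and the segment of the gamma C-type genes beside it lies between 0.0% and 20.0%.

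These H3K27me3 peaks were wide and weak. The strongest at a member start had a −log10 p of 1.1 after Sham, 1.76 after SNA, 1.04 after Lam and 1.04 after DCA. The cluster's median fold enrichment over the background was 1.07, 1.14, 1.16 and 1.16, against 1.11, 1.15, 1.19 and 1.18 for all peaks of the lists. The highest −log10 q of any H3K27me3 peak in the cluster was 0.637, 0.457, 0.16 and 0.0, so 0 of them passed a q of 0.05, a limit that 1613, 218, 916 and 43 peaks of the lists passed. The account of H3K27me3 therefore rests on the number, width and place of weak peaks. Members of a group are alike in sequence over parts of their exons, the reads had 50 bases, and the treatment of reads that match several members is not given in the sources used here. Its part in these counts was not tested.

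The SNA and Sham lists were compared to ask what sciatic axotomy did at these genes. The number of member starts with a peak differed by 0 for H3K9ac, 0 for H3K27ac, 1 for ATAC and 1 for H3K27me3. Behind the last number, 8 starts had an H3K27me3 peak after SNA and not after Sham and 7 the reverse, or 14.5% and 12.7% of the members, where 6.24% and 10.8% of the other genes gained and lost one. The ATAC start peak was present after SNA and absent after Sham at Pcdhga2 and Pcdhga8, and the reverse at Pcdhgc4, where 5.42% and 3.31% of the other genes gained and lost one. An ATAC summit 1 to 3 kb after the start was present after SNA alone of the pair at 14 members and after Sham alone at 9. That is 25.5% and 16.4%, beside 7.91% and 6.87% of the other genes. Members had this summit and the H3K27me3 start peak more often than the other genes in every list. Shares gained and lost, here and below, are therefore not on a like base. Counted as merged regions, ATAC had 37 of 117 regions of the cluster after SNA and not after Sham and 22 the reverse, or 31.6% and 18.8%, close to the 27.2% and 21.7% of the genome. For H3K27ac these numbers were 9 and 3 of 21 regions, or 42.9% and 14.3%, beside 40.6% and 16.9% of the genome, and for H3K9ac 5 and 0 of 19, beside 27.8% and 8.1%. H3K27me3 had 39 and 31 of 127, or 30.7% and 24.4%, beside 29.0% and 24.8%.

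The DCA and Lam lists were compared in the same way for the spinal axotomy. Member starts with a peak differed by 1 for H3K9ac, −1 for H3K27ac and 1 for ATAC. For H3K27me3 the DCA list had 10 fewer, 33 against 43. After DCA and not after Lam 4 starts had the mark, and after Lam and not after DCA 14 had it, or 7.27% and 25.5% of the members, beside 2.1% and 16.6% of the other genes. Of the 14, 5 were alpha, 3 beta, 2 gamma A, 1 gamma B and 3 gamma C-type genes, so Pcdhgc3, Pcdhgc4 and Pcdhgc5 each had it after Lam and not after DCA. The DCA list held 90011 H3K27me3 peaks and the Lam list 154055. When the Lam list was cut to its 90011 strongest peaks by −log10 p, the difference turned to 14 more after DCA, 33 against 19. The DCA list, the shortest, was not cut. The direction of the difference thus changes when the weakest Lam peaks are left out. List length and rank by −log10 p were not told apart. An ATAC summit 1 to 3 kb after the start was present after DCA alone of the pair at 16 members and after Lam alone at 6. That is 29.1% and 10.9%, beside 7.35% and 7.82% of the other genes. For beta genes these counts were 8 and 2. As merged regions, ATAC had 39 of 117 after DCA and not after Lam and 19 the reverse, or 33.3% and 16.2%, beside 24.9% and 23.0% of the genome. H3K9ac had 7 and 0 of 19, beside 45.4% and 7.42%, H3K27ac 3 and 4 of 21, beside 11.4% and 30.6%, and H3K27me3 16 and 34 of 127, or 12.6% and 26.8%, beside 15.5% and 34.3%.

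Lam and Sham, neither of which cut an axon, give the difference between control surgeries. H3K27me3 start peaks were after Lam and not after Sham at 10 members and the reverse at 8. That is 18.2% and 14.5%, beside 9.98% and 7.59% of the other genes. The ATAC summit after the start was after Lam alone of the pair at 6 members and after Sham alone at 13, or 10.9% and 23.6%, beside 8.18% and 7.0%. The Lam list thus had 7 fewer such members than the Sham list, while SNA had 5 more than Sham and DCA 10 more than Lam. The Lam list had the lowest ATAC count in the cluster, 49 peaks, and it enters the comparison with DCA as well as that with Sham. As merged regions, ATAC had 18 of 117 after Lam and not after Sham and 27 the reverse, beside 24.4% and 23.4% of the genome. H3K9ac had 2 and 1 of 19, beside 13.9% and 14.6%, H3K27ac 7 and 4 of 21, beside 31.3% and 11.4%, and H3K27me3 28 and 24 of 127, beside 31.1% and 23.4%.

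Merged over the 4 surgeries, the cluster's regions were shared more often than those of the genome in 3 of 4 assays. For ATAC 22 of 117 regions (18.8%) were in all 4 lists, beside 10.0% of the genome's. For H3K9ac 7 of 19 (36.8%) were, beside 18.8%, and for H3K27me3 28 of 127 (22.0%), beside 3.82%. For H3K27ac 2 of 21 (9.52%) were, beside 13.6%. The 7 H3K9ac regions are not those of the protocadherin genes alone. They include chr18:37643324-37644988 at an end of Taf7, and chr18:37841974-37843428 and chr18:37849114-37852051 past the gamma end. The H3K27me3 shares are not on a like base. Overlapping peaks were joined, so 1 region can be wide, as chr18:37666188-37760555 is. H3K27me3 peaks also covered 22.3% to 33.2% of the cluster against 3.36% to 7.13% of the genome. Wide regions and dense peaks meet a peak of every list more easily, and their part in this difference was not tested.

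The narrow peaks of the 12 H3K9ac, H3K27ac and ATAC lists merged into 118 sites along the cluster, and the sites with all 3 assays lay away from the variable genes. Of the 22 sites of the alpha variable segment, 27 of the beta segment and 17 of the gamma variable segment, 0 had peaks in all 3 assays. This follows from the lack of H3K9ac peaks in these segments and is no further result. In every one of the 12 lists peaks were found at the Pcdhgc3 start and at chr18:37643324-37644988, at an end of Taf7, a subunit of the general transcription factor TFIID that lies between the beta and gamma genes. The ATAC −log10 p at the Taf7 end was 29.0, 37.1, 36.5 and 23.1, the highest of the cluster after Sham, SNA and Lam.

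Towards the end that the alpha genes share, chr18:37177613-37179338 had peaks in 11 of the 12 lists. It lies 9.18 kb before the shared alpha end. Its H3K9ac −log10 p was 5.43 after Sham, 4.79 after SNA, 5.29 after Lam and 21.0 after DCA, where it was the strongest H3K9ac peak of the cluster. Its H3K27ac −log10 p was 11.8 after SNA, 12.5 after Lam and 8.36 after DCA, and the missing list was H3K27ac after Sham. That list had a peak (5.78) in the neighbouring site chr18:37176797-37177305, as did H3K27ac after SNA (5.93). Its ATAC −log10 p was 6.3, 15.2, 8.02 and 9.54. Between the alpha and beta genes, 46.7 kb before the Pcdhb1 start, chr18:37217958-37218587 was accessible in all 4 lists, at 16.3, 12.4, 8.6 and 11.9, with no acetyl peak in any. Enhancers that act on alpha genes are known to lie in and beyond their constant exons, and whether these sites are among them was not tested.

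Several acetylated sites lay between the Pcdhgc5 start and the shared gamma end, or just past it. At chr18:37823855-37826758, 16.6 kb before the shared gamma end, all 8 acetyl lists had a peak, with an H3K27ac −log10 p of 9.53, 5.01, 5.1 and 8.99, and ATAC had one after Sham and Lam. At chr18:37835227-37836346, 6.09 kb before that end, ATAC had a peak in all 4 lists and H3K9ac after SNA, Lam and DCA. At chr18:37841974-37843531, just past the end on the side of Diaph1, H3K9ac had a peak in all 4 lists, H3K27ac in all except SNA and ATAC in all except Lam.

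For the acetyl marks, peaks at the shared gamma end decide the count of members with a peak at either end. In most lists these belong to that last site. Just before it, chr18:37841159-37841809 had H3K9ac after Lam (3.14) and DCA (7.0) and H3K27ac after Lam (4.56). All 21 gamma genes count once a peak lies within 1 kb of their shared end, so 21 members had H3K9ac in each list, beside 49.1%, 50.6%, 49.7% and 59.3% of all 21887 genes. For H3K27ac the numbers were 10 after Sham, 1 after SNA, 21 after Lam and 21 after DCA, beside 40.3%, 50.9%, 50.9% and 42.7%. The Sham peak begins at position 37842872, at the edge of the 1 kb window, which some gamma ends reach and others do not. Diaph1, a formin gene next to the cluster, has an end 550 bp from that peak, so the peak cannot be assigned to the protocadherin genes alone. For ATAC 39, 30, 24 and 29 members had a peak at either end, beside 69.4%, 71.2%, 69.5% and 70.7%, and for H3K27me3 42, 52, 47 and 36, beside 28.6%, 23.0%, 33.4% and 12.3%. At the distal ends of the 22 beta genes, which are not shared, 0 had an acetyl peak, 5, 8, 2 and 5 had an ATAC peak and 20, 18, 15 and 16 had H3K27me3.

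Genes of related function were counted at either end. Of 9 genes that act in protocadherin promoter choice, such as Ctcf, the cohesin subunit gene Smc3 and the chromatin repressor gene Smchd1, 5, 7, 6 and 7 had an H3K9ac peak at an end, 7 had an ATAC peak in every list and 0, 0, 1 and 0 had H3K27me3. The cohesin subunit gene Rad21 and the cohesin loader gene Nipbl, named after their values were seen, had no end peak in any of the 12 H3K9ac, H3K27ac and ATAC lists. Only the 1 kb around annotated gene ends was searched, so peaks elsewhere in these genes were not counted. Of Ptk2, Ptk2b and Ret, whose products bind protocadherin cytoplasmic domains, 2, 3, 3 and 3 had an ATAC peak and 1, 1, 1 and 2 an H3K9ac peak. Of 12 non-clustered protocadherins 4, 5, 3 and 5 had H3K9ac, 10, 9, 9 and 8 had ATAC, and 9, 3, 6 and 2 had H3K27me3. The 39 Hox genes, another set of clustered genes and known Polycomb targets, had H3K27me3 at an end of 26, 19, 33 and 12, and an ATAC peak at 34, 37, 32 and 34. Among the neighbours on chromosome 18, Zmat2, Taf7, Diaph1 and Hdac3 had an end peak in all 12 H3K9ac, H3K27ac and ATAC lists, and Slc25a2, a mitochondrial carrier gene between beta and gamma, had none in those lists.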

How the data were processed

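Peak lists were deposited by the authors, 1 for each of 4 assays and 4 surgeries, with replicates pooled per the labels. Coordinates are on mm10, per the submitters' processing notes. The aligner, the peak caller and its settings are not given in the sources used here. The deposited lists hold an integer score per peak, which was not used, a fold enrichment (a ratio over the authors' background) and the authors' −log10 p and −log10 q, that is p-values and q-values. The last 3 describe, rank or filter peaks within a list. ATAC intervals listed with several summits were reduced to the strongest summit.

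Peaks within 1 kb of a member start, within 1 kb of either end and along the cluster with 10 kb on each side were counted, with an overlap of at least 1 bp. The 95% Wilson intervals of shares take members as independent and include counting error alone. The background is 17492 genes of other chromosomes with a start in the RefSeq GRCm38.p6 promoter table, or all 21887 genes for either end. No exon structure was used. No test was run. Alternatives were windows of 500 bp and 5 kb, either end, a q of at most 0.05, a −log10 q of at least 5 and lists brought to equal size. The interval code was tested on simulated data. Python 3.11.15, pandas 2.3.3, numpy 2.4.6, scipy 1.17.1 and matplotlib 3.10.9 were used.

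The members and gene lists were chosen with earlier results of these data known. Named are members with an H3K9ac, H3K27ac or ATAC start peak in at least 1 list, members with H3K27me3 at the start in all 4 lists, the strongest peak of an assay along the cluster, Pcdhac1, Pcdhac2 and the neighbours. Others are said to have been named after their values were seen.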

Additional observations from a re-analysis of the deposited data

Results flagged for a closer look

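With all peaks, 3 measures differed between injury and control in opposite directions after the 2 axotomies. H3K27ac peaks along the cluster were 9 more in SNA than in Sham and differed by −2 between DCA and Lam. H3K27me3 start peaks differed by 1 between SNA and Sham and by −10 between DCA and Lam. H3K27me3 peaks along the cluster were 29 more in SNA than in Sham and differed by −10 between DCA and Lam. Each number compares 1 pooled list with another, and the difference between the 2 axotomies was not tested. With lists of equal size the opposition was gone for both counts along the cluster and turned round at the starts. H3K27ac peaks along the cluster were then 10 (SNA) against 7 (Sham) and 10 (DCA) against 7 (Lam). H3K27me3 peaks were 62 (SNA) against 56 (Sham) and 108 (DCA) against 61 (Lam), and the H3K27me3 start differences turned to −5 (SNA minus Sham) and 14 (DCA minus Lam). The lists moved the same way as wholes, with 75824 H3K27ac peaks in SNA, 43803 in Sham, 46489 in DCA and 67311 in Lam.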

How the results depend on the processing

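No paired analysis was possible because the deposited lists pool the replicates of a condition, and for the same reason no replicate could be left out. With lists of equal size the H3K27me3 difference between DCA and Lam at member starts reversed to 14, and that between Lam and Sham became −10. It was 0 between DCA and Lam at a q of at most 0.05 and at a −log10 q of at least 5, since 0 peaks of the cluster passed. Counting either gene end moved the H3K27ac differences to −9 (SNA minus Sham) and 11 (Lam minus Sham), that of H3K27me3 to 10 (SNA minus Sham) and those of ATAC to −9 (SNA minus Sham) and −15 (Lam minus Sham), because the gamma and the alpha genes share ends. A window of 5 kb moved the ATAC differences to 10 (SNA minus Sham) and 8 (DCA minus Lam). With either gene end and with 5 kb, smaller changes are not listed. A window of 500 bp changed the H3K27me3 differences from 1 to −2 (SNA minus Sham) and from 2 to 1 (Lam minus Sham). It changed the ATAC difference from 1 to 0 (DCA minus Lam), and the others of the 12 differences stayed the same.

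Along the cluster a −log10 q of at least 5 left 0 (Sham), 1 (SNA), 1 (Lam) and 9 (DCA) H3K9ac peaks, and, ordered alike, 2, 6, 5 and 3 H3K27ac peaks, 7, 14, 7 and 10 ATAC peaks and 0 H3K27me3 peaks in each list, and a q of at most 0.05 also left 0 H3K27me3 peaks in each. Equal list sizes gave 12 (Sham), 11 (SNA), 14 (Lam) and 11 (DCA) H3K9ac peaks, so both injury lists then had fewer than their controls where they had more with all peaks. They gave 7, 10, 7 and 10 H3K27ac peaks and 56, 62, 61 and 108 H3K27me3 peaks in that order, so DCA then had more than Lam for both marks where it had fewer with all peaks. The number of members with an ATAC summit 1 to 3 kb after the start stayed within 1.5 times its value under 4 alternatives chosen after seeing the data, the lowest being 16 in Lam and the highest 32 in SNA. Depth is unknown, and a missing peak is not a measurement that a mark was absent.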
